A study of Mus musculus with 2 samples.

Results

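The type I interferon response genes are 31 listed mouse genes that cells switch on when interferon alpha or beta reaches their surface receptor, together with sensors and transcription factors of the same circuit. They were chosen by gene symbol, and 30 of the 31 were counted among 32285 genes in all. Mx1 was not analysed here. The 30 genes comprise 5 sensors of foreign or misplaced nucleic acid, 3 transcription factors, 1 feedback gene and 21 effectors.

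The data are droplet single-cell RNA counts from CT26 tumours. CT26 is a colon carcinoma line of BALB/c origin, grown under the skin of wild-type BALB/c mice that were 5 weeks old. The WQ-2101 group received 20 mg/kg of this compound into the peritoneum each day, once tumours had reached about 100 mm3, and the Vehicle group received vehicle only. The series title places the compound under PHGDH inhibition, PHGDH being the enzyme that opens serine synthesis. Tumours were taken on day 17, and there was 1 library per group. How many mice contributed to a library is not given in these sources, so no test of the treatment was possible and no p-value is given. The intervals below are 95% intervals that cover counting error only.

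In this circuit, sensors such as MDA5 and RIG-I detect RNA in the cytosol and lead to transcription of the interferon beta gene, Ifnb1. Secreted interferon binds its receptor on the same or on neighbouring cells, and the kinases behind it activate factors such as STAT2, which joins IRF9 on a DNA motif called the interferon-stimulated response element. The effectors made in turn block viral RNA and protein, and several sensors and factors are themselves induced, which closes a loop. In tumours, type I interferon is known for its part in priming T cells through dendritic cells.

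The response element can be shown in the genes that carry the results below. Promoter windows ran from 250 bases before to 50 bases after the transcription start, from RefSeq on GRCm38.p6, which is C57BL/6J sequence and not that of BALB/c. Of the 30 counted genes 25 had a window. A core of GAAA, 2 bases of any kind and GAAA again, or the same with TTTC on the other strand, was present in 15 of these 25 windows and in 3.49% of 27025 windows, 1 per gene symbol. Overlapping matches were counted separately. The Ifih1 window is chr2:62646206-62646505 on the minus strand. The Rsad2 window is chr12:26456403-26456702 on the minus strand. The Oasl1 window is chr5:114922990-114923289 on the plus strand. The Irf7 window is chr7:141266375-141266674 on the minus strand. The Isg15 window is chr4:156200769-156201068 on the minus strand. The Apol9b window is chr15:77728822-77729121 on the plus strand. Ifih1, Rsad2 and Oasl1 are shown because they differed most between the libraries in macrophages, and Irf7 because it went the other way there. Isg15 is shown as an effector highest in leukocyte classes, and Apol9b as an effector highest in tumour cells. Capitals mark the response element core, and each line runs 5′ to 3′ on the strand of the gene.
Ifih1: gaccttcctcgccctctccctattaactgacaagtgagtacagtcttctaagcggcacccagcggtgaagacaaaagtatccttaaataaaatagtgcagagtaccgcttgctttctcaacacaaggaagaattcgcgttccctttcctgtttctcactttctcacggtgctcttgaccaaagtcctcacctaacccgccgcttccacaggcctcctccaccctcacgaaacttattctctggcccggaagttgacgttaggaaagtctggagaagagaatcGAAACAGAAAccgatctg
Rsad2: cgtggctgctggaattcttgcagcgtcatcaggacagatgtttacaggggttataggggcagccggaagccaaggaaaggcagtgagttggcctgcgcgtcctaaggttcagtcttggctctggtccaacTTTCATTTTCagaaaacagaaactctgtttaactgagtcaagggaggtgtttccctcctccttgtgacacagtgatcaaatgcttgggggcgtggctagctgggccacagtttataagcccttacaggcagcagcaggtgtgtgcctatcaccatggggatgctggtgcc
Oasl1: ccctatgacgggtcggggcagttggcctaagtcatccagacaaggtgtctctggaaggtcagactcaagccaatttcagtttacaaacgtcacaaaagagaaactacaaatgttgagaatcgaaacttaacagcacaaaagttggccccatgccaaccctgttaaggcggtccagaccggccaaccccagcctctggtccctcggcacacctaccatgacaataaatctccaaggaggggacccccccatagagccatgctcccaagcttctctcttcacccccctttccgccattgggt
Irf7: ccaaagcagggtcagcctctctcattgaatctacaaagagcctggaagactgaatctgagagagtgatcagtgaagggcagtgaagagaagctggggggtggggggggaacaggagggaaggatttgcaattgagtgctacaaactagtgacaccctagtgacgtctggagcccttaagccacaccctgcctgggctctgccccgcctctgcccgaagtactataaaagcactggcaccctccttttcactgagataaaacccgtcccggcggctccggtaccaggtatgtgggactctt
Isg15: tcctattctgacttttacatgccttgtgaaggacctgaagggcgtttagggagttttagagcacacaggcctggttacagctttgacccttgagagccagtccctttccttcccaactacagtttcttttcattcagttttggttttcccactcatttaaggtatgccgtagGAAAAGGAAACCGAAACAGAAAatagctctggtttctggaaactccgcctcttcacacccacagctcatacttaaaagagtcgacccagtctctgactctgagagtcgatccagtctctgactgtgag
Apol9b: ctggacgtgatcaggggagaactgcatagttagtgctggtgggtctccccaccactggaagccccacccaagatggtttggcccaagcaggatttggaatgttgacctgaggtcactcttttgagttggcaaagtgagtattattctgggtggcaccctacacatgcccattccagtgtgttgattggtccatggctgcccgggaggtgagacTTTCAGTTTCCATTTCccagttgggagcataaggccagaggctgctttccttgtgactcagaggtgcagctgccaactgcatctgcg
Isg15 held 3 overlapping matches and Apol9b held 2, while Ifih1 and Rsad2 held 1 each. The Ifih1 match lay after the transcription start. These letters were not in the Irf7 and Oasl1 windows.

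The WQ-2101 library held 18142 barcodes and 185587327 UMIs, and the Vehicle library 14374 barcodes and 184754398 UMIs, a UMI being 1 counted molecule. After filters 17293 WQ-2101 cells (median depth 8048 UMIs) and 13668 Vehicle cells (median depth 10742.5 UMIs) were kept, and 72 cell barcodes occurred in both libraries. Cells were assigned to classes by marker genes, none of them an interferon response gene. This gave 8213 WQ-2101 and 6401 Vehicle tumour cells, 2903 and 3244 macrophages, 308 and 758 monocytes, and 532 and 473 T cells. The epithelial markers Krt8, Krt18 and Epcam had a UMI in only 13, 9 and 247 droplets of both libraries, and tumour cells were marked by Krt14, Slurp1, Hmga2, Igf2bp3 and Tnfrsf12a. Hmga2 and Tnfrsf12a also defined the reference tumour droplets used to check markers, so that check was largely fixed for them. Of the listed markers not used, Krt18, Krt7 and Epcam were lower in those droplets than in other cells. Krt8, Krt19, Prl2c2 and Prl2c3 were higher there but seen in few droplets. Droplets with both tumour and macrophage RNA made up 12% of WQ-2101 and 2.25% of Vehicle cells, and they were left out of every class. Of these, 1725 of 2071 WQ-2101 and 46 of 307 Vehicle droplets lay in cluster 8, which held 2956 WQ-2101 and 112 Vehicle cells in all.

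Levels below are UMIs of a gene scaled to 1000000 UMIs of its class (CPM), and each gene is compared only with itself across classes. Within tumour cells and macrophages the genes had unlike distributions. Apol9b, an apolipoprotein L family gene, was 28.2 CPM in WQ-2101 and 22.0 CPM in Vehicle tumour cells. It was 2.85 CPM in WQ-2101 and 1.21 CPM in Vehicle macrophages. Tumour cells were its highest class in both libraries, but in WQ-2101 the interval overlapped that of neutrophils, at 18.3 CPM. That neutrophil class held only 72 cells and 109361 UMIs in all, and Apol9b was 0 CPM in Vehicle neutrophils. Its near copy Apol9a was likewise high in tumour cells, at 20.8 CPM in WQ-2101 and 14.8 CPM in Vehicle, and 1.74 and 0.73 CPM in macrophages. Fibroblasts were the highest class for Apol9a, at 22.9 CPM in WQ-2101 and 21.0 CPM in Vehicle, with intervals that overlapped those of tumour cells. The last 500 bases of an Apol9a transcript share 41.5% of their 50-base words with Apol9b, so reads may be split between them.

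Epsti1, named for induction by epithelial and stromal contact, had the reverse pattern. It was 372 CPM in WQ-2101 and 365 CPM in Vehicle T cells, and 100.1 and 86.1 CPM in macrophages, but 2.37 and 1.34 CPM in tumour cells. Ifit1, which binds viral RNA ends, was 226 CPM in WQ-2101 and 285 CPM in Vehicle T cells, against 8.47 and 7.89 CPM in tumour cells. Ifih1, which encodes MDA5, was 194 CPM in WQ-2101 and 156 CPM in Vehicle T cells, and 13.7 and 12.4 CPM in tumour cells. The membrane tether Bst2, which holds budding virus at the cell surface, was broad, at 86.0 and 73.5 CPM in tumour cells and 111 and 117 CPM in macrophages.

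The class with the highest level was the same in both libraries for 17 of the 30 genes and differed for 13. Rsad2, which encodes viperin, a maker of a chain-ending nucleotide, was highest in conventional dendritic cells in both, at 173 CPM in WQ-2101 and 105 CPM in Vehicle. These came from 55 and 61 cells with 41 and 45 Rsad2 UMIs, and the interval overlapped that of the next class in each library. A single dendritic cell held 34.1% of these UMIs in WQ-2101 and 51.1% in Vehicle, so the ranking leans on few cells. Fibroblasts, with 67 WQ-2101 and 169 Vehicle cells, had 117 CPM of Ifit1 in WQ-2101 and 10.8 CPM in Vehicle. That level came from 10 WQ-2101 and 11 Vehicle cells, and 1 WQ-2101 cell held 36.1% of the WQ-2101 UMIs.

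**Figure D1:**
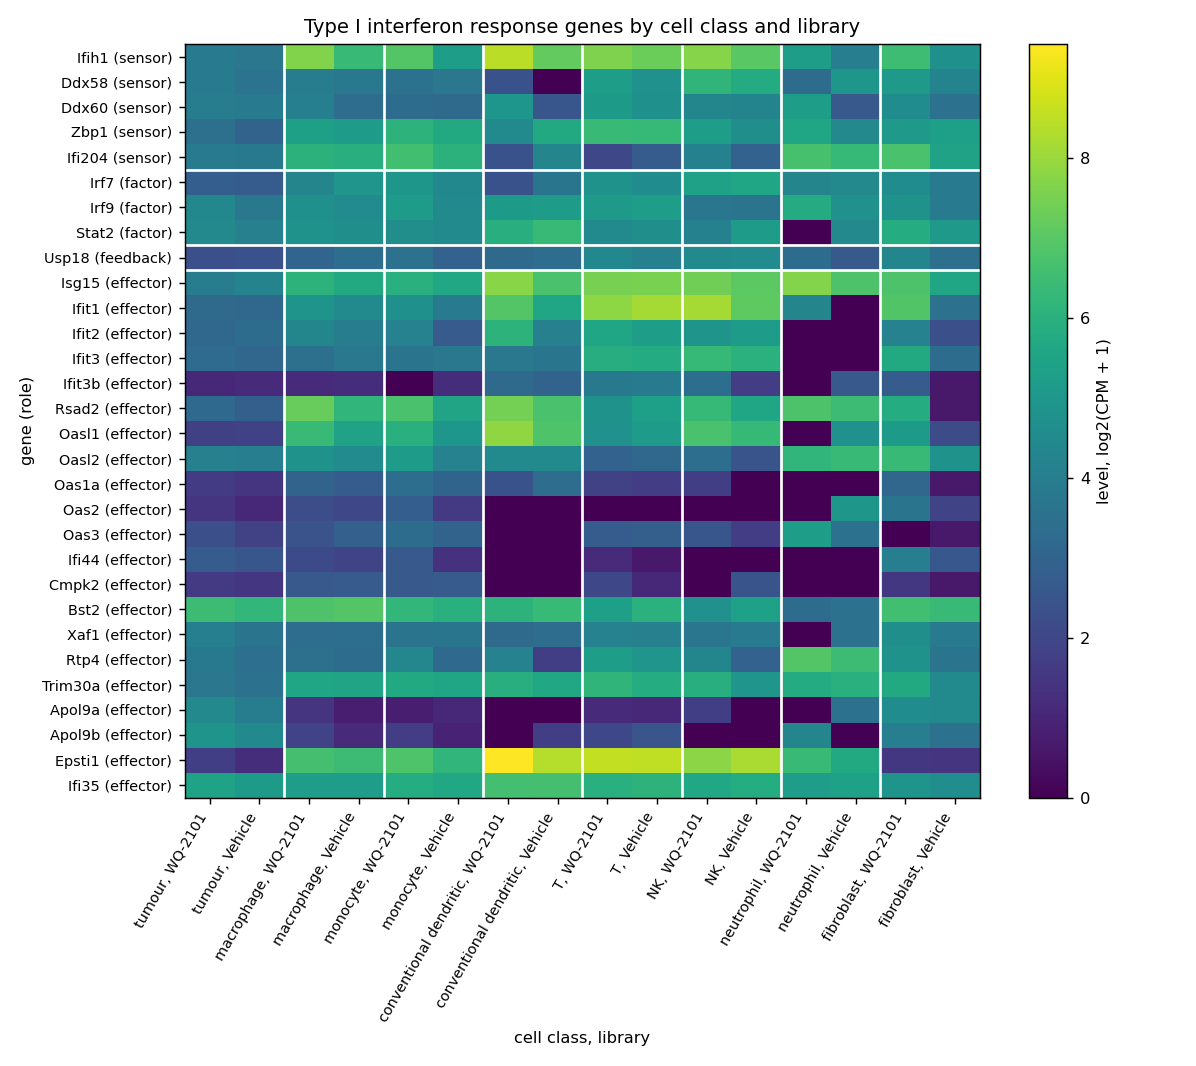
Level of each counted gene, as log2(CPM + 1), in 8 cell classes, with the WQ-2101 column left of the Vehicle column in each class and genes grouped by role. Apol9a and Apol9b are bright in tumour cells and dark in most leukocytes, and Epsti1 is the reverse.

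In tumour cells 0 of the 22 type I interferon response genes with a mean of at least 5 CPM were 1.5-fold higher and 0 lower, on the scale of CPM plus 5. Over all 9991 genes at that level 0.831% were higher and 0.410% lower. The median log2 ratio of the 22 genes was 0.18, against -0.01 over all genes, and 20 of 22 were above 1-fold, against 46.3% of all genes. The 8 of 30 genes under the minimum were Usp18, Ifit3b, Oasl1, Oas1a, Oas2, Oas3, Cmpk2 and Epsti1. Of these, Epsti1 was 2.37 CPM in WQ-2101 and 1.34 CPM in Vehicle, a plain CPM ratio of 1.77 (interval 1.45 to 2.17). Oas2, a 2-5A synthetase, was 1.64 CPM in WQ-2101 and 1.05 CPM in Vehicle, a plain ratio of 1.56 (interval 1.23 to 1.97).

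The sensors differed little in tumour cells. Ifih1 was 13.7 CPM in WQ-2101 and 12.4 CPM in Vehicle tumour cells. Ddx58, which encodes RIG-I, was 13.4 CPM in WQ-2101 and 10.9 CPM in Vehicle. Ddx60, a helicase that aids these sensors, was 14.6 CPM in WQ-2101 and 14.0 CPM in Vehicle. Zbp1, a sensor of left-handed nucleic acid that can trigger cell death, was the sensor with the highest ratio, at 10.0 CPM in WQ-2101 and 7.02 CPM in Vehicle (log2 ratio 0.32, interval 0.24 to 0.40). Ifi204, of a family of DNA sensors with close copies, was 13.4 CPM in WQ-2101 and 13 CPM in Vehicle.

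Of the factors, Irf9 had the highest ratio of any of the 22 genes, at 19.9 CPM in WQ-2101 and 12.6 CPM in Vehicle tumour cells (log2 ratio 0.50, interval 0.43 to 0.57). Its plain CPM ratio was 1.57 (interval 1.47 to 1.68), and with 1 CPM added in place of 5 its log2 ratio was 0.61, past 1.5-fold. Stat2, its partner, was 20.5 CPM in WQ-2101 and 16 CPM in Vehicle. Irf7, which amplifies interferon alpha transcription, was 6.06 CPM in WQ-2101 and 5.76 CPM in Vehicle. Isg15, a ubiquitin-like protein attached to other proteins, and Ifit2 were the 2 genes below 1-fold. Isg15 was 14.8 CPM in WQ-2101 and 17.4 CPM in Vehicle, and Ifit2 was 7.80 CPM in WQ-2101 and 8.97 CPM in Vehicle. The 14 effectors at the minimum ranged in log2 ratio from -0.18 for Isg15 to 0.38 for Apol9a.

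The macrophage markers summed to 162 CPM in WQ-2101 and 129 CPM in Vehicle tumour cells over 10 markers, none at 0 in either. With macrophage RNA subtracted in proportion to those markers, the tumour log2 ratio was -0.02 for Ifih1, against 0.11 without subtraction, and 0.13 for Rsad2, against 0.25.

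Genes that interferon gamma chiefly induces, a list chosen with results of these data known, differed more in the same tumour cells. Of the 9 listed, 7 were at the minimum level, 6 were 1.5-fold higher and 0 lower, with a median log2 ratio of 0.77. The chemokine Cxcl9 was 30.2 CPM in WQ-2101 and 12.8 CPM in Vehicle tumour cells. The GTPase Iigp1 was 101 CPM in WQ-2101 and 55.0 CPM in Vehicle. Of 37 further interferon-induced genes counted, 24 were at the minimum and 1 was higher, Ifi27l2a, at 73.9 CPM in WQ-2101 and 47.3 CPM in Vehicle.

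Over macrophages and monocytes pooled, 3 of the genes stood 1.5-fold higher in the WQ-2101 library and 0 lower, of 25 at the minimum level. Over all 9339 genes at that level 1.24% were higher and 0.750% lower. The median log2 ratio of the 25 genes was 0.15, against a median near 0 over all genes. The 3 were the sensor Ifih1 and the effectors Rsad2 and Oasl1, the last a 2-5A synthetase-like protein known in mouse as a brake on Irf7 translation.

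Ifih1 was 192 CPM in WQ-2101 and 75.7 CPM in Vehicle macrophages and monocytes (log2 ratio 1.29, interval 1.22 to 1.36). Rsad2 was 147 CPM in WQ-2101 and 68.5 CPM in Vehicle (1.05, interval 0.97 to 1.13). Oasl1 was 79.8 CPM in WQ-2101 and 39.8 CPM in Vehicle (0.92, interval 0.82 to 1.02). Each passed 1.5-fold in macrophages alone and in monocytes alone. Macrophages alone had 3 of 25 genes higher and 0 lower, where 1.23% of 9359 genes were higher and 0.780% lower. In macrophages Ifih1 was 197 CPM in WQ-2101 and 81.8 CPM in Vehicle, and in monocytes 117 CPM and 38.1 CPM. Tumour markers summed to 87.3 CPM in WQ-2101 and 67.2 CPM in Vehicle macrophages, over 5 markers with none at 0. Tumour RNA, estimated from those markers, was 4.86% of WQ-2101 and 4.07% of Vehicle RNA in macrophages and monocytes pooled. With it subtracted, Ifih1, Rsad2 and Oasl1 each stayed 1.5-fold higher there. Tumour cells themselves carried 13.7 and 12.4 CPM of Ifih1. The 6 monocyte markers summed to 529 CPM in WQ-2101 and 868 CPM in Vehicle macrophages, and to 726 and 1286 CPM over macrophages and monocytes pooled, with none at 0. Their part within macrophages was not tested.

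The other sensors lay closer between the libraries. Ddx60 was 15.5 CPM in WQ-2101 and 9.15 CPM in Vehicle macrophages and monocytes (0.53, interval 0.37 to 0.70). Ddx58 was 14.5 CPM in WQ-2101 and 12.6 CPM in Vehicle. Zbp1 was 42.0 CPM in WQ-2101 and 37.1 CPM in Vehicle, and Ifi204 was 67.3 CPM in WQ-2101 and 60.9 CPM in Vehicle. Of the 5 sensors, Ifih1 was the 1 past 1.5-fold on the scale of CPM plus 5, while the plain CPM ratio of Ddx60 was 1.69 (interval 1.44 to 1.99).

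Among the factors, Irf7 was the gene with the lowest ratio, at 19.4 CPM in WQ-2101 and 28.0 CPM in Vehicle (log2 ratio -0.44, interval -0.58 to -0.30), and it did not pass 1.5-fold. The classes differed in direction. In macrophages Irf7 was 18.6 CPM in WQ-2101 and 29.3 CPM in Vehicle, whereas in monocytes it was 30.6 CPM in WQ-2101 and 19.9 CPM in Vehicle, from 41 and 89 UMIs. Irf9 was 26.2 CPM in WQ-2101 and 22.4 CPM in Vehicle, and Stat2 was 27.5 CPM in WQ-2101 and 24.3 CPM in Vehicle. Usp18, which limits receptor signalling, was 7.63 CPM in WQ-2101 and 9.18 CPM in Vehicle.

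The other 14 effectors at the minimum lay between log2 ratios of -0.25 for Oas3 and 0.39 for Ifit1. Isg15 was 67.4 CPM in WQ-2101 and 50.7 CPM in Vehicle macrophages and monocytes, Bst2 was 108 and 109 CPM, and Ifi35 was 38.8 and 38.9 CPM. The 5 genes under the minimum were Ifit3b, Oas2, Ifi44, Apol9a and Apol9b. Of the interferon gamma list 2 of 8 genes were higher, Gbp5 at 36.9 CPM in WQ-2101 and 15.6 CPM in Vehicle, and Ciita, the master factor of MHC class II, at 23.7 and 13.9 CPM. Of 33 further interferon-induced genes at the minimum 1 was higher, the ligase Herc6, at 24.5 CPM in WQ-2101 and 13.7 CPM in Vehicle. None of 10 induction genes passed 1.5-fold.

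In monocytes alone 9 of 25 genes were 1.5-fold higher and 0 lower, where 4.0% of 9117 genes were higher and 2.73% lower. Besides Ifih1, Rsad2 and Oasl1 these were Irf9, Ifit1, Ifit2, Oasl2, Rtp4 and Epsti1. Log2 intervals reached below 1.5-fold for Irf9 (0.15 to 1.05), Ifit1 (0.22 to 1.24), Ifit2 (0.48 to 1.61) and Oasl2 (0.41 to 1.32). They also did for Rtp4 (0.31 to 1.42), Epsti1 (0.32 to 0.86) and Oasl1 (0.58 to 1.32). Ifit2 was 17.2 CPM in WQ-2101 and 5.60 CPM in Vehicle monocytes, from 23 and 25 UMIs. Oasl2 was 35.8 CPM in WQ-2101 and 17.3 CPM in Vehicle. Rtp4, which chaperones membrane receptors, was 19.4 CPM in WQ-2101 and 8.29 CPM in Vehicle. Irf9 was 35.1 CPM in WQ-2101 and 21.3 CPM in Vehicle. Macrophage markers summed to 1772 CPM in WQ-2101 and 2780 CPM in Vehicle monocytes, and their part was not tested.

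In T cells 0 of 23 genes were 1.5-fold higher and 1 was lower, where 3.30% of 9628 genes were higher and 3.61% lower. The gene was Bst2, at 38.7 CPM in WQ-2101 and 64.5 CPM in Vehicle (log2 ratio -0.67, interval -1.09 to -0.25). The median over the 23 genes was 0.01, and the 7 genes under the minimum were Ifi204, Oas1a, Oas2, Ifi44, Cmpk2, Apol9a and Apol9b. Ifng, which T cells secrete, was 407 CPM in WQ-2101 and 170 CPM in Vehicle T cells.

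**Figure D2:**
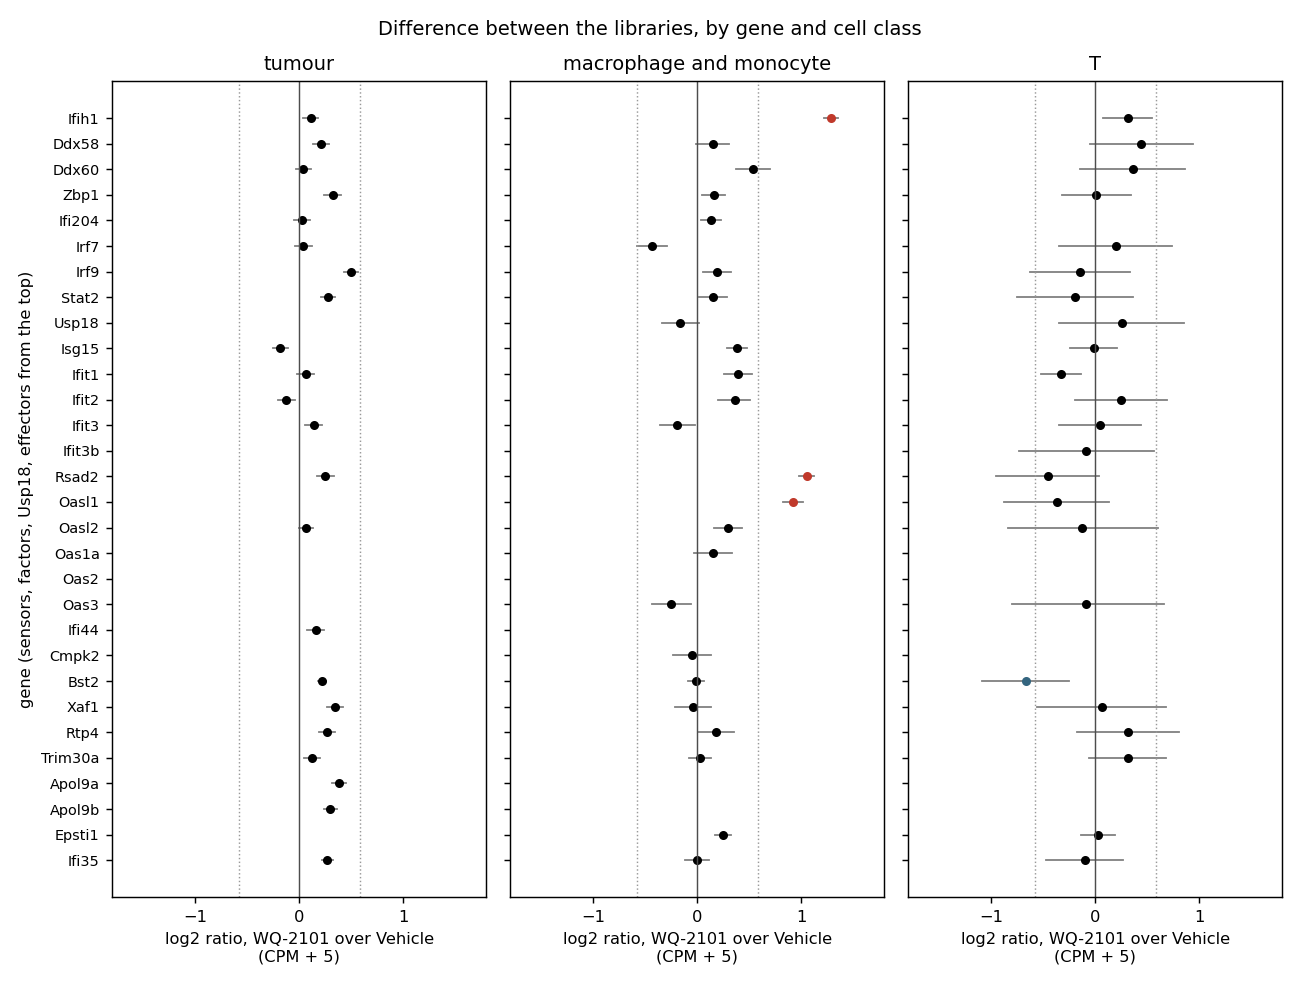
Log2 ratio of WQ-2101 over Vehicle, on CPM plus 5, for each gene at the minimum level in tumour cells, macrophages with monocytes, and T cells. Lines are 95% counting intervals, dotted lines mark 1.5-fold, red points are higher and blue points lower. Ifih1, Rsad2 and Oasl1 stand right of the others in macrophages and monocytes, and Irf7 stands left.

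Ifnb1, the interferon beta gene, is not one of the 31 genes, and its product is a known inducer of most of them. It was 8.37 CPM in WQ-2101 and 3.03 CPM in Vehicle macrophages and monocytes, from 170 and 96 UMIs, and passed 1.5-fold. Ifna2, an interferon alpha gene, had 7 UMIs in WQ-2101 and 0 in Vehicle macrophages and monocytes. An Ifnb1 UMI was found in 76 of 3211 WQ-2101 cells (2.37%, interval 1.87 to 2.95) and 46 of 4002 Vehicle cells (1.15%, interval 0.843 to 1.53). Among tumour cells, with deeper medians of 13407 UMIs in WQ-2101 and 16621 in Vehicle, it was found in 3 of 8213 and 2 of 6401. With each cell thinned to 3000 UMIs the macrophage and monocyte shares were 1.30% in WQ-2101 and 0.542% in Vehicle. Monocytes were 3 of the 76 WQ-2101 and 2 of the 46 Vehicle cells with an Ifnb1 UMI. They made up 308 of 3211 WQ-2101 and 758 of 4002 Vehicle cells in the pool, and the part of this in the pooled values was not tested.

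Of the 21 effectors, 11 were higher in cells with an Ifnb1 UMI than in the other macrophages and monocytes, with intervals above 1 in both libraries. The other 10 were Oas1a, Oas2, Oas3, Ifi44, Bst2, Xaf1, Trim30a, Apol9a, Apol9b and Ifi35, most with few UMIs in the Ifnb1 cells. In WQ-2101 cells with Ifnb1, Rsad2 was 1340 CPM, against 113 CPM in the rest, and in Vehicle cells with Ifnb1 it was 963 CPM, against 57.6 CPM. Ifit1 was 361 CPM against 18.9 CPM in WQ-2101, and 488 CPM against 14.8 CPM in Vehicle. The cell with most Ifit1 held 9.22% of its UMIs among the WQ-2101 cells with Ifnb1, and 37.6% among those of Vehicle. Of the sensors, Ifih1 was 1633 CPM against 150 CPM in WQ-2101, and 808 CPM against 66.7 CPM in Vehicle. Not all genes followed. Irf9 was 28.0 CPM in WQ-2101 cells with Ifnb1 and 26.2 CPM in the rest, and 23.6 against 22.4 CPM in Vehicle. Ifi35, a cytosolic partner of other interferon-induced proteins, was 49.1 against 38.5 CPM in WQ-2101 and 31.5 against 39.0 CPM in Vehicle, with intervals of both ratios that include 1.

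Leaving out every cell with an Ifnb1 UMI, a choice made after seeing the data, left the log2 ratio of WQ-2101 over Vehicle at 1.11 for Ifih1, 0.91 for Rsad2 and 0.87 for Oasl1. The difference was present in 4 macrophage and monocyte clusters for Ifih1, at ratios of 2.0, 1.91, 2.83 and 3.51 in clusters 10, 11, 12 and 14. For Rsad2 the ratio was 1.11 in cluster 11, where the level was 386 CPM in WQ-2101 and 349 CPM in Vehicle, and at least 2.33 in the other 3 clusters.

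**Figure D3:**
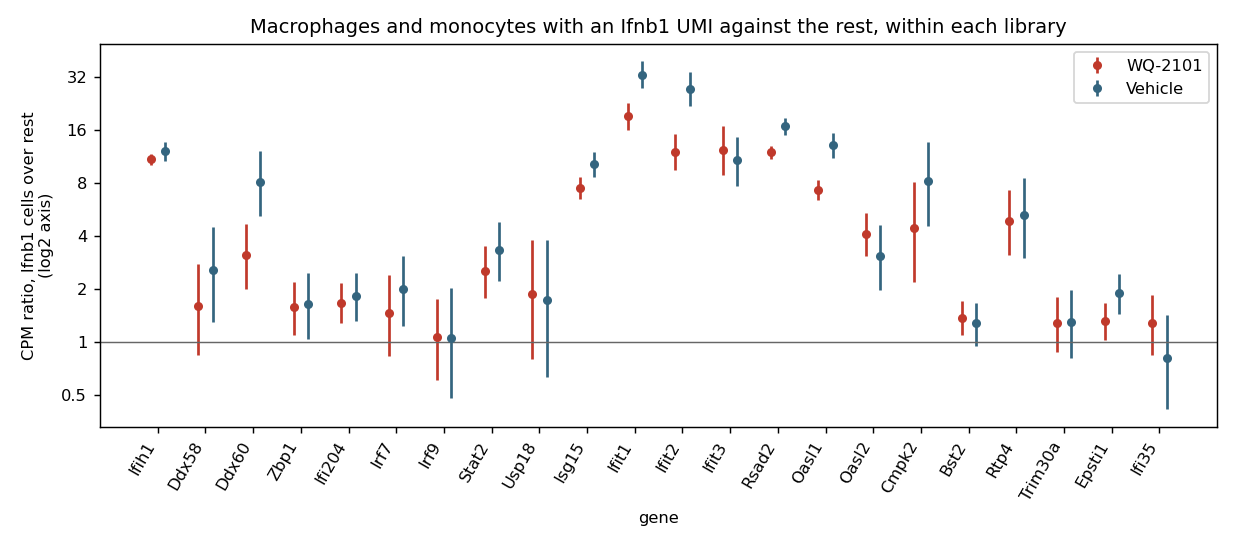
Ratio of CPM in macrophages and monocytes with an Ifnb1 UMI over those without, on a log2 axis, within the WQ-2101 library and the Vehicle library. The 22 genes have at least 5 UMIs in the Ifnb1 cells of each library, and lines are 95% counting intervals. Ifit1, Rsad2, Ifih1 and Oasl1 are far above 1 in both, while Irf9, Trim30a and Ifi35 lie near 1.

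The transcripts were unevenly spread over cells. In macrophages and monocytes the 5% of cells with most Rsad2 UMIs held 74.9% of them in WQ-2101 and 89.7% in Vehicle. For Ifih1 the shares were 69.5% in each library. For Bst2 they were 26.9% in WQ-2101 and 28.3% in Vehicle, and for Epsti1 31.4% in WQ-2101 and 30.7% in Vehicle.

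To count cells rich in effector UMIs at equal depth, each cell was thinned to 3000 UMIs, and a cell with at least 6 UMIs of the 21 effectors was called effector-high. In macrophages and monocytes this was 226 of 2689 WQ-2101 cells (8.40%, interval 7.38 to 9.52) and 188 of 3688 Vehicle cells (5.10%, interval 4.41 to 5.86). In tumour cells it was 167 of 7858 WQ-2101 cells (2.13%) and 164 of 6323 Vehicle cells (2.59%), with overlapping intervals. The 21 effectors include Rsad2 and Oasl1, both already past 1.5-fold in macrophages and monocytes. Shares without these genes were not measured, so the macrophage and monocyte shares are not a separate result. Cells left out for lower depth were 522 in WQ-2101 and 314 in Vehicle macrophages and monocytes, and 355 and 78 among tumour cells. Without thinning the shares were 19.3% in WQ-2101 and 18.2% in Vehicle macrophages and monocytes, and 21.9% and 20.5% in tumour cells. The library with the deeper cells was Vehicle. Tumour cells with 0 effector UMIs after thinning were 50.3% in WQ-2101 and 58.3% in Vehicle, and macrophages and monocytes 32.3% and 39.4%.

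**Figure D4:**
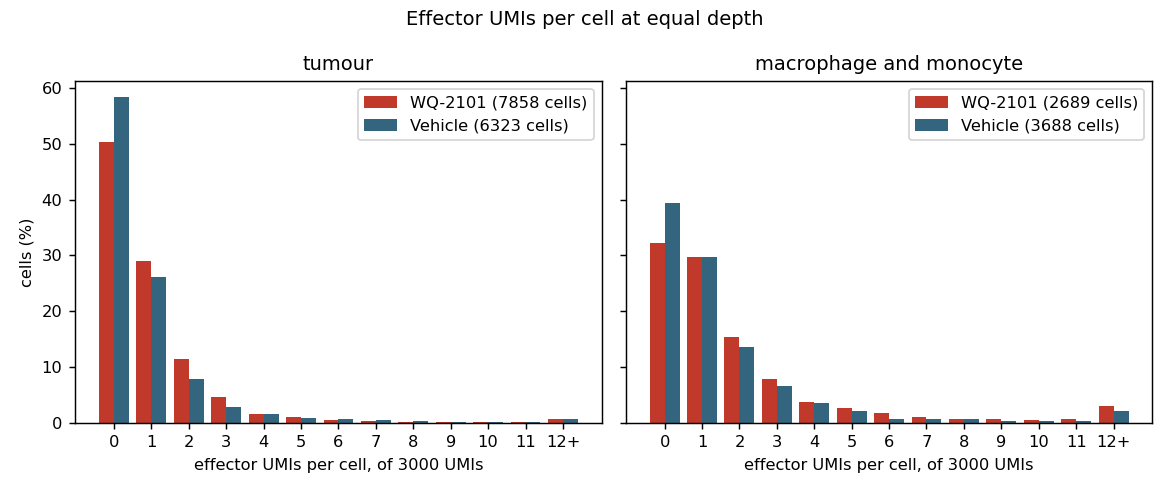
Share of cells, in percent, by number of effector UMIs after thinning to 3000 UMIs, for WQ-2101 and Vehicle, in tumour cells and in macrophages and monocytes. The WQ-2101 bar at 0 is lower than the Vehicle bar in both classes.

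The 5 sensors and 3 factors, which played no part in that choice, were all higher in effector-high cells of tumour cells and of macrophages and monocytes, with intervals above 1 in both libraries. The share of all genes higher in effector-high cells was not measured, so this count has no background beside it. In tumour cells Irf7 was 17.5-fold higher in effector-high cells than in the rest of the WQ-2101 library and 20.0-fold in Vehicle, and Ddx60 was 12.8-fold and 15.8-fold. Irf9 had the lowest ratios there, 3.20 in WQ-2101 and 4.11 in Vehicle. In macrophages and monocytes Ifih1 was 12.6-fold in WQ-2101 and 10.2-fold in Vehicle, and Irf7 was 6.06-fold in WQ-2101 and 10.7-fold in Vehicle. Ddx58 was 2.46-fold in WQ-2101 and 7.09-fold in Vehicle, with intervals of 1.77 to 3.36 and 5.59 to 8.92 that do not overlap. In T cells, with 33 effector-high WQ-2101 and 43 effector-high Vehicle cells, Ifih1 was 9.85-fold in WQ-2101 and 10.3-fold in Vehicle, but intervals included 1 in both libraries for Ifi204, Irf7, Irf9 and Stat2, and for Zbp1 in WQ-2101. In macrophages and monocytes 124 of 165 WQ-2101 and 59 of 96 Vehicle Ifnb1 UMIs, not thinned, came from effector-high cells. All tumour cells at this depth held only 3 Ifnb1 UMIs in WQ-2101 and 2 in Vehicle. Of these 0 came from effector-high cells, and such totals are too low for a comparison.

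**Figure D5:**
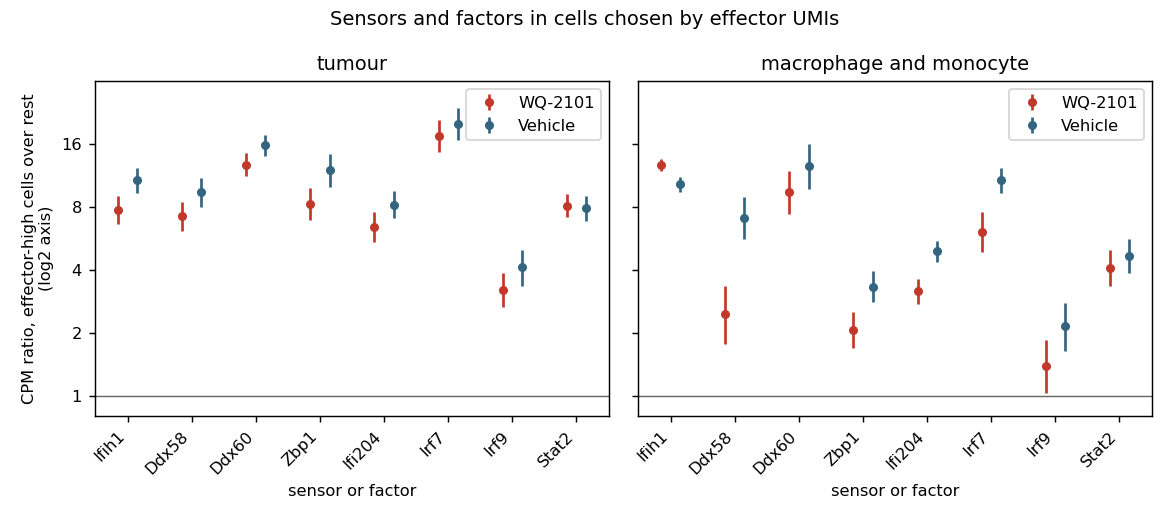
CPM ratio of effector-high cells over the rest, on a log2 axis, for the 5 sensors and 3 factors in tumour cells and in macrophages and monocytes of the WQ-2101 and Vehicle libraries. Lines are 95% counting intervals. All points lie above 1, with Irf9 lowest in each class.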

How the data were processed

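Single-cell RNA libraries from 2 tumour groups were analysed from the authors' deposited matrices of UMI counts, which are not normalised. Per the file headers these were made by Cell Ranger 7.2.0. Version 2.2.2 and the build GRCm38 stand in the submitters' processing notes. The batch label is shared, and the labels record no sort. The lowest barcode total was 500 UMIs.

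Computation used Python 3.11.15, scanpy 1.11.5, numpy 2.4.6, scipy 1.17.1 and pandas 2.3.3. Barcodes needed at least 500 UMIs, 300 genes and at most 15% mitochondrial UMIs. Scrublet called 753 WQ-2101 and 545 Vehicle doublets, which were removed. A cell was gated when its marker score was at least 0.1 and the next lineage reached at most 0.3 of it. Both limits were chosen after seeing the data. Of 94 markers 75 were used, the rest being set aside where they did not separate reference tumour droplets from other cells or were seen in too few droplets. Clusters used 2000 variable genes, 30 components, 15 neighbours and Leiden resolution 1.

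Counts were summed per class and library and divided by class UMIs (CPM). Log2 ratios add 5 CPM, and genes with a mean of at least 5 CPM are counted. Levels have exact Poisson intervals, ratios exact conditional intervals and shares Clopper-Pearson intervals. Code was tested on simulated data. Named genes are all members past 1.5-fold, the sensors and factors, and effectors of widest spread, with genes of the other lists past 1.5-fold, of which 1 is not reported here. The genes, lists and markers were chosen with earlier results of these data known. Promoters are RefSeq sequence.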

Additional observations from a re-analysis of the deposited data

Results flagged for a closer look

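Droplets outside the cell classes were searched only for genes higher in WQ-2101 than in Vehicle, by 1.5-fold or more on CPM plus 5. Lower genes could not be flagged. The search gave 5 signals that the comparisons above do not use. In droplets with both tumour and macrophage RNA, Xaf1 was 16 CPM in WQ-2101 and 8.02 CPM in Vehicle (log2 ratio 0.69), Apol9a was 17.7 and 7.71 CPM (0.84), and Apol9b was 22.4 and 10.5 CPM (0.82). In droplets with no class at all, Rsad2 was 54.8 CPM in WQ-2101 and 32.5 CPM in Vehicle (0.67), and Apol9a was 18.6 and 10.6 CPM (0.59). Droplets with both RNAs had 3 of 24 genes at the minimum higher and 4 lower, where 5.01% of 10212 genes were higher and 9.21% lower. The 4 lower genes were outside the search and are not named, so these signals show no common direction. Droplets with no class had 2 of 25 higher and 0 lower, where 0.935% of 10587 genes were higher and 1.73% lower. The make-up of these droplets differed between the libraries, and its part in these values was not tested.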

How the results depend on the processing

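With 1 library per group no difference between libraries can be separated from variation between animals, and depth limits T cells and monocytes most. In simulated T cell counts some unchanged genes also passed 1.5-fold, so calls there are weak. Of the counts, medians and shares, 124 values under alternatives stayed close to those reported and 11 moved. Of single-gene values 533 stayed close and 57 moved, 19 of them with the monocyte gate alone, 12 with macrophages and monocytes at equal weight (median 0.28, 4 higher, 0 lower), 11 with cells weighted alike and 10 with a pseudocount of 1. The log2 ratios of Ifih1 (1.11 to 1.5), Rsad2 (0.91 to 1.22) and Oasl1 (0.87 to 1.07) passed 1.5-fold in all 13 settings, and Irf7 ranged from -0.54 to 0.51. Ifnb1 passed in 11 of the 13, and its log2 ratio was 0 by construction where cells with an Ifnb1 UMI were left out. In T cells 2 genes were lower with named clusters, 1 higher and 2 lower with the stricter gate, and 2 lower with cells weighted alike, a setting that gave 5 higher in macrophages and monocytes. A pseudocount of 1 gave 1 higher gene in tumour cells, and a minimum of 20 CPM gave a tumour median of 0.27 over 3 genes. The monocyte gate alone gave 9 higher and a median of 0.35. Without thinning, the ratio of WQ-2101 over Vehicle effector-high shares was 1.07 in tumour cells (0.82 reported) and 1.06 in macrophages and monocytes (1.65 reported). The cause of these shifts was not tested. The looser gate, the tumour gate without cluster 8 (median 0.19) and leaving out cells with an Ifnb1 UMI were chosen after seeing the data. No paired analysis was possible because each group has 1 library.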
